A study of Mus musculus with 16 samples.

Results

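Claudins are the membrane proteins that form the strands of the tight junction and set what passes between epithelial cells. The 10 claudin genes of the intestinal epithelium described here were chosen by name, Cldn1, Cldn2, Cldn3, Cldn4, Cldn6, Cldn7, Cldn8, Cldn12, Cldn15 and Cldn23, and all 10 were found among the 54532 genes of the count table, which lists 35 claudins in all. Some claudins form pores. Claudin-2 and claudin-15 conduct sodium and water between the enterocytes of the small intestine, and claudin-12 has been tied to the passage of calcium. The others mostly seal the junction: claudin-3, claudin-4 and claudin-8 tighten epithelia, claudin-1 is needed for the barrier of the skin, claudin-7 is found along the lateral membrane as well, claudin-6 belongs to embryonic epithelia, and claudin-23 is a claudin of the mature intestinal surface. By this division 3 of the 10 genes were taken as pore-forming, Cldn2, Cldn12 and Cldn15, and 7 as sealing.

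RNA was measured in 16 cultures of mouse jejunal enteroids, which are epithelial organoids grown from crypts and here kept in differentiation medium, with 4 cultures from 4 mice in each of 4 groups. MYO5BΔIEC enteroids carried Vil-CreERT2;Myo5b-flox/flox and were given 1 µM 4-OH-tamoxifen for 24 h to delete Myo5b, the motor that carries apical membrane cargo, and then PBS vehicle, or Compound-1, a synthetic agonist of the lysophosphatidic acid receptor LPAR5, at 100 nM for 2 days. MYO5B(G519R) enteroids carried Vil-CreERT2;Myo5b-flox/G519R, a substitution that models patients, over a floxed allele, and also received tamoxifen, with no further treatment. Control enteroids were labelled only as control with no treatment, and by the methods they came from the same kind of Vil-CreERT2;Myo5b-flox/flox mice and were given ethanol in place of the drug, so tamoxifen itself and the loss of MYO5B cannot be told apart. The Cre was driven by the villin promoter, which is active across the intestinal epithelium.

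Libraries held 27804968 to 40101729 counts. Myo5b counts, taken over the whole gene, do not resolve a deleted exon or a substitution: control cultures had 160 to 229.6 CPM, which are counts scaled to the total of the library, those of MYO5BΔIEC 101 to 169, those of MYO5B(G519R) 136 to 173 and those given Compound-1 87.2 to 149, and the call was made only with Compound-1 against control (log2 fold change −0.77, edgeR adjusted p = 0.0146). Epithelial markers such as Epcam, at 975.1 to 1442 CPM over all cultures, were present throughout, while fibroblast, endothelial and immune markers summed to at most 0.956, 1.76 and 9.38 CPM. One library stood apart. Control culture 1 correlated at a mean of 0.969 with the other control cultures, which correlated with each other at 0.992 to 0.993, and it had 6.41% of its counts in mitochondrially encoded genes against 9.07 to 10.4% in the others. The 12 mutant libraries had 3.79 to 6.63%, a range that holds the value of control culture 1, and it correlated at a mean of 0.970 with the MYO5BΔIEC cultures. The Spearman correlation across genes between gene length and a library's deviation from the mean of all libraries was 0.107 for it, −0.332 to −0.317 for the other controls and −0.0289 to 0.252 for the mutant cultures. In the mitochondrial share and the length trend this library thus goes against its label, for a cause that was not tested, and it is called control culture 1 here by its label alone. Results that rest on it are given with and without it.

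The sequences just upstream of the transcription start are shown for the 2 sealing genes that differed and lie side by side, Cldn4 and Cldn3, and for the 2 abundant pore-forming genes that did not pass the test, Cldn2 and Cldn15. They were taken from RefSeq on GRCm38.p6, each with 250 bases before the start. Capitals mark 3 motifs read on both strands. The first is the GC box, with the letters GGGCGG. The next is the site of the factor AP-1, spelled TGANTCA. The last is the start-site box of the TBP factor, whose letters are TATAAA. The windows lie at chr5:134946935-134947184 on the minus strand for Cldn4, chr5:134985964-134986213 on the plus strand for Cldn3, chrX:139800558-139800807 on the plus strand for Cldn2 and chr5:136967619-136967868 on the plus strand for Cldn15, where 25 bases overlap an annotated exon of another transcript.
Cldn4: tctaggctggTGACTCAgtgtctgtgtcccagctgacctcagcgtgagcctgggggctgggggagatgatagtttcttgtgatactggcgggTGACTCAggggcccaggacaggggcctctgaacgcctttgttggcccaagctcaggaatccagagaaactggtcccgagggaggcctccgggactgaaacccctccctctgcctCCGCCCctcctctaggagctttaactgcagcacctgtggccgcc
Cldn3: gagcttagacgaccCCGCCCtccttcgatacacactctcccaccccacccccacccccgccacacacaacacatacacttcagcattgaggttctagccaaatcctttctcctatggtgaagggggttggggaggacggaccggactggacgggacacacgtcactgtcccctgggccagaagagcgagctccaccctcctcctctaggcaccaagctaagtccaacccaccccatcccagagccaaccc
Cldn2: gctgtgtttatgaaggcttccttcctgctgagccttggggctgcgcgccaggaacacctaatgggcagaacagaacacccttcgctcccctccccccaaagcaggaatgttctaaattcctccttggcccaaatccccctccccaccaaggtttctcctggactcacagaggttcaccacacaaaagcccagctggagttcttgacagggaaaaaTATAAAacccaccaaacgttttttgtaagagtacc
Cldn15: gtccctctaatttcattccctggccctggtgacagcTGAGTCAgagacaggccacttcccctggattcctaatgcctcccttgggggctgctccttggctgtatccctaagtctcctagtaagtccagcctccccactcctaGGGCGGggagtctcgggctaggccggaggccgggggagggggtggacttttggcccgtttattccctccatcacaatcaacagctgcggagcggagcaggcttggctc
The Cldn4 window held 2 AP-1 letters and 1 GC box, the Cldn15 window held 1 of each, the Cldn3 window held 1 GC box, and the Cldn2 window held the TBP box alone. Of 32851 mouse promoter windows of the same length, 6.75% held the AP-1 letters, 32.7% the GC box and 12.4% the TBP box. RefSeq windows were matched for 8 of the 10 genes, 11 windows in all, and not for Cldn8 and Cldn23. GC boxes were found in 8 of the 11, AP-1 letters in those of Cldn4 and Cldn15, and the TBP box in that of Cldn2. None of the 11 held the grainyhead-type letters AACNNGTT, found in 3.64% of all windows. The HNF4-type letters CAAAGNNCA, found in 5.49% of all windows, were absent as well. So were the CDX-type letters TTTATNG, found in 9.81%. The same held for the letters AGATAA of the erythroid-type zinc finger factors, found in 9.99%. Letters of the TBP and CDX-type motifs can overlap, and no matches overlapped in the windows shown. The motifs were chosen with the expression values known, and a match is a description of the letters only.

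Cldn3 and Cldn4 are neighbours on chromosome 5. Cldn4 lies at chr5:134945119-134946934 on the minus strand and Cldn3 at chr5:134986214-134987472 on the plus strand, so that they are transcribed away from each other, with 39279 bases between them and no protein-coding gene lying wholly within these. Both consist of 1 exon, as do Cldn8 and Cldn23. Cldn3 shares 40 bases with Wbscr25, an antisense gene with 0 to 73 counts a library against 6485 to 31896 for Cldn3, and reads in the shared bases cannot be told apart without a stated strand setting.

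The claudins spanned a wide range of abundance in control enteroids. On the FPKM scale, which divides by gene length and so allows genes to be compared, Cldn7 at 216 ± 57.0 (mean ± SD, n = 4) and Cldn3 at 209 ± 44.1 were the most abundant, and their ranges overlapped. Cldn15 at 128 ± 13.6 FPKM and Cldn2 at 118 ± 14.6 FPKM formed the next pair, again with overlapping ranges. Below them came the sealing gene Cldn4 at 55.2 ± 19.9 FPKM. The pore-forming gene Cldn12 stood at 19.8 ± 7.47 FPKM. Cldn23 was lower, at 6.25 ± 1.51 FPKM. From the pair of Cldn15 and Cldn2 down to Cldn23, the ranges of the 4 cultures did not overlap between one gene and the next.

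Cldn8, Cldn6 and Cldn1 were the scarcest. In control enteroids they lay at 1.28 ± 0.60, 0.288 ± 0.258 and 0.0649 ± 0.0294 FPKM. Counts of Cldn6 were 3 to 31 a library over the 16 cultures and those of Cldn1 0 to 18. Cldn1 had 0 counts in MYO5B(G519R) culture 4 and in Compound-1 culture 1, which allows a level of up to 0.0905 and 0.101 CPM, from a limit of 3 counts that covers counting error only.

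The order changed in the mutant cultures. Cldn4 took the third rank, at 182 ± 25.4 FPKM in MYO5BΔIEC and 153 ± 21.1 FPKM in MYO5B(G519R), where its range overlapped that of Cldn15 in both groups. Cldn23 stood above Cldn12. The ranges of these 2 genes overlapped in MYO5BΔIEC, at 20.4 ± 2.83 and 14.5 ± 2.86 FPKM, and were separate in MYO5B(G519R), at 17.5 ± 1.99 and 14.3 ± 0.736 FPKM. Cldn3 took the first place in both groups, at 356 ± 55.7 and 336 ± 19.0 FPKM, with Cldn7 overlapping it.

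**Figure D1:**
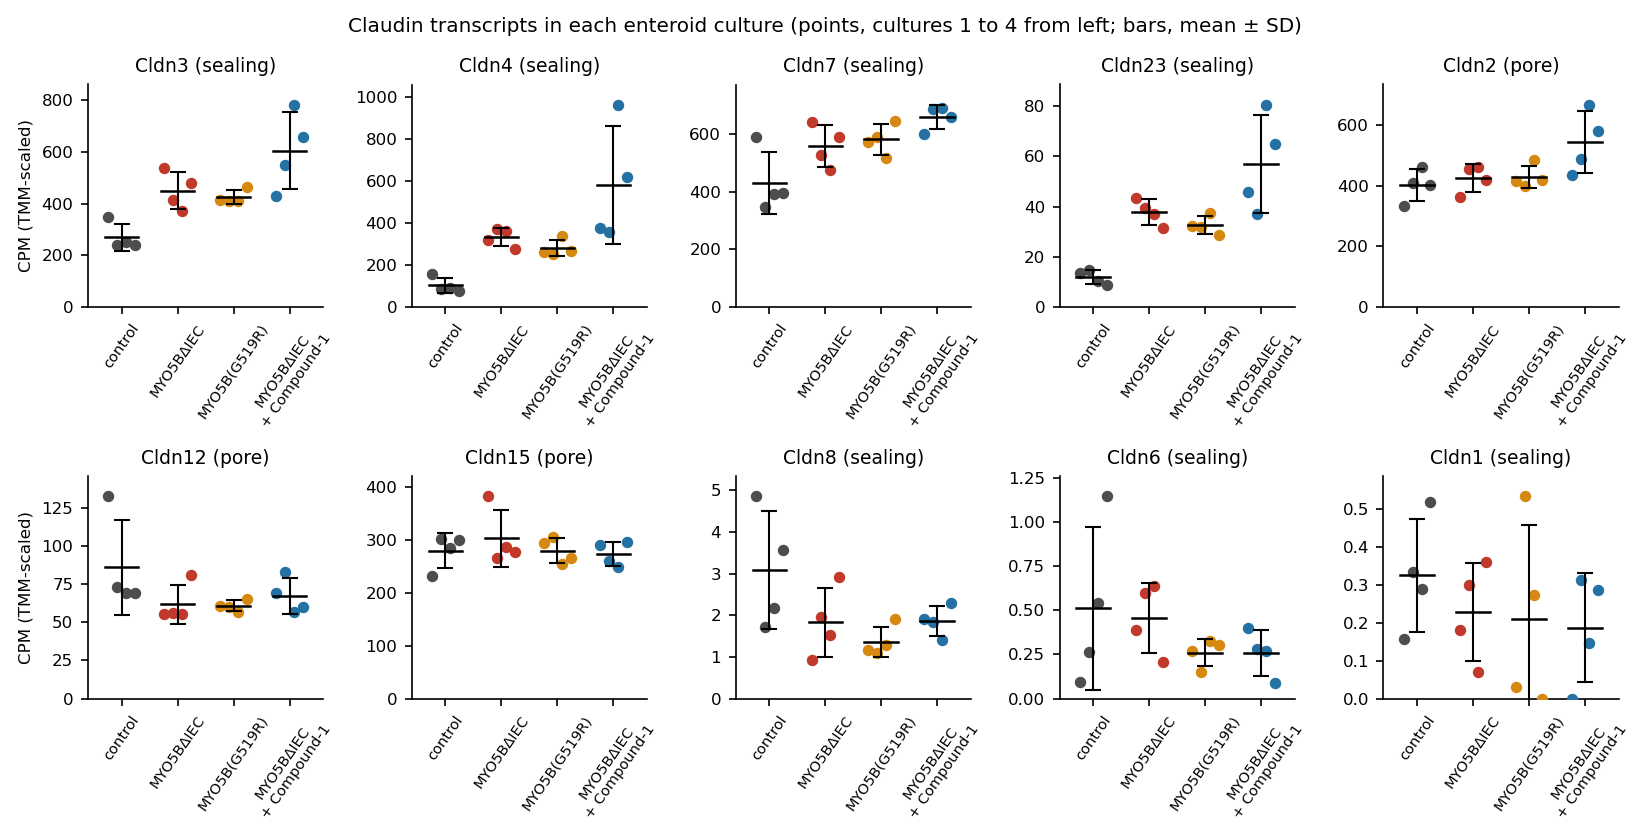
CPM (TMM-scaled, linear axes from 0) of each of the 10 claudins in each culture; points are cultures 1 to 4 from left in each group, and black bars are the mean ± SD of 4 cultures. Cldn4 and Cldn23 lie higher in every mutant culture than in every control culture, and control culture 1 is the highest control for Cldn3, Cldn4, Cldn7, Cldn8 and Cldn12.

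Loss of MYO5B was compared with control first, to ask which junction genes differed when the motor was removed. In MYO5BΔIEC enteroids 3 of the 10 claudins rose, Cldn4, Cldn23 and Cldn3, and all 3 belong to the sealing class, while none of the 3 pore-forming genes passed the test. At an edgeR adjusted p under 0.05, 13.5% of the 17951 genes tested were called higher and 27.4% in either direction, so 3 of 10 is close to the share of all genes called. The median log2 fold change was 0.10 over the 10 claudins, 0.09 over the pore-forming genes and 0.38 over the sealing genes, against −0.01 over all genes tested. Cldn4 and Cldn23 had been named by the study as raised in these same cultures, so their direction here is not independent evidence. The study described the genes it named with them as barely or not detected in control. In the control libraries Cldn4 had 2121 to 4948 counts and Cldn23 had 234 to 445.

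Cldn4, whose protein tightens epithelia, read 155, 84.9, 91.8 and 78.6 CPM in control cultures 1 to 4 and 320.0, 369.9, 361 and 277 CPM in MYO5BΔIEC cultures 1 to 4. The lowest mutant culture exceeded the highest control culture, which was culture 1. The log2 fold change was 1.70 ± 0.22 (SE; 3.25-fold, 95% interval 2.31 to 4.58, edgeR adjusted p = 0.00149), and it ranged from 1.59 to 1.97 when single cultures were left out.

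Cldn23 read 13.5, 14.8, 10.4 and 8.67 CPM in control and 43.6, 39.4, 37.0 and 31.5 CPM in MYO5BΔIEC. Here control culture 1 lay within the other controls, and the groups were well apart. The log2 fold change was 1.68 ± 0.19 (SE; 3.21-fold, interval 2.39 to 4.32, edgeR adjusted p = 0.0014). In bulk cultures such as these, a gene expressed by more cells and a gene expressed more strongly per cell cannot be told apart.

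Cldn3, the neighbour of Cldn4, read 349, 239, 251 and 240.2 CPM in control and 538, 415, 372 and 479 CPM in MYO5BΔIEC. The groups did not overlap, although control culture 1 came within reach of the lowest mutant culture. Its log2 fold change of 0.75 ± 0.18 (SE; 1.68-fold, interval 1.27 to 2.21, edgeR adjusted p = 0.0126) was smaller than that of Cldn4. Every culture lay above every control culture for these 3 genes, a pattern that 13.0% of all genes tested also showed.

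Cldn7, the partner of EpCAM at the lateral membrane, depended on 1 control library. It read 589.7, 347, 393 and 395 CPM in control and 643, 527, 478 and 589 CPM in MYO5BΔIEC. With all cultures it differed by 0.38 ± 0.19 on the log2 scale (SE, edgeR adjusted p = 0.161). Without control culture 1 it was 0.57 and passed the test (adjusted p = 0.00676).

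The pore-forming genes Cldn2 and Cldn15 overlapped between the 2 groups. Cldn2 read 333, 409, 462 and 404 CPM in control and 362, 456, 462 and 418 CPM in MYO5BΔIEC, and the interval of the difference ran from 0.837-fold to 1.34-fold (edgeR adjusted p = 0.724). Cldn15 read 233, 303, 286 and 300.3 CPM in control and 383, 267, 286 and 278 CPM in MYO5BΔIEC, with an interval of 0.846-fold to 1.4-fold (adjusted p = 0.626). For Cldn2 the ranges overlapped almost fully. For Cldn15 MYO5BΔIEC culture 1 lay above every control and the other 3 cultures within the control range. These intervals leave room for changes of modest size.

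Cldn12, the third pore-forming gene, read 132, 73.1, 69.3 and 68.9 CPM in control and 55.3, 55.7, 55.3 and 80.9 CPM in MYO5BΔIEC. In both groups 1 culture stood far above the other 3. The log2 difference of −0.47 ± 0.23 (SE, edgeR adjusted p = 0.156) did not pass the test and was −0.18 without control culture 1. Among the scarce sealing genes, Cldn8 had a log2 difference of −0.74 ± 0.41, Cldn6 of −0.15 ± 0.68 and Cldn1 of −0.48 ± 0.63, with adjusted p of 0.204, 0.900 and 0.617.

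The MYO5B(G519R) enteroids were compared with the same control cultures, so the 2 comparisons are not independent of each other. Cldn4, Cldn23 and Cldn3 were again called higher, and Cldn8 was called lower. Of the 17829 genes tested, edgeR called 13.1% higher and 13.7% lower at an adjusted p under 0.05, and 26.8% in all. The median log2 fold change was 0.05 over the 10 claudins, 0.00 over the pore-forming genes and 0.44 over the sealing genes, against −0.05 over all genes.

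Cldn4 read 259.8, 254, 336 and 268 CPM in MYO5B(G519R) cultures 1 to 4. All were above the highest control culture, a pattern found in 13.6% of all genes tested, and the log2 fold change was 1.45 ± 0.22 (SE; 2.72-fold, interval 1.94 to 3.82, edgeR adjusted p = 0.00272). Cldn23 read 32.3, 31.7, 37.3 and 28.8 CPM, again above every control, with a log2 fold change of 1.46 ± 0.18 (2.75-fold, interval 2.08 to 3.63, adjusted p = 0.00192). Culture 3 was the highest of the 4 for both genes.

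Cldn3 read 414, 412, 409 and 466 CPM in MYO5B(G519R). The cultures were closely grouped and lay above all controls, with a log2 fold change of 0.66 ± 0.15 (SE; 1.58-fold, interval 1.25 to 1.98, edgeR adjusted p = 0.0116). Cldn7 read 574, 592, 518.8 and 648 CPM, which overlapped control through control culture 1. Its log2 fold change was 0.44 ± 0.18 (adjusted p = 0.0948) with all cultures and 0.66 without control culture 1 (adjusted p = 0.000725).

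Cldn8 was the 1 claudin called lower. It read 4.86, 1.73, 2.18 and 3.56 CPM in control and 1.16, 1.09, 1.28 and 1.90 CPM in MYO5B(G519R), from 37 to 155 counts a library, and the ranges overlapped. It fell by 1.18 ± 0.36 on the log2 scale (SE, edgeR adjusted p = 0.0359). The call was lost without control culture 1 (adjusted p = 0.0514) or 4 (0.0895) and without MYO5B(G519R) culture 1 (0.0924), 2 (0.0967) or 3 (0.0861).

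Cldn2 at 416, 399, 484 and 420.3 CPM and Cldn15 at 294, 307, 255 and 266 CPM in MYO5B(G519R) overlapped control. Their intervals ran from 0.868-fold to 1.32-fold and from 0.821-fold to 1.22-fold (edgeR adjusted p = 0.639 and 0.998). Cldn12 read 60.8, 59.97, 56.8 and 65.2 CPM, below every control culture, as for 13.8% of all genes tested. This difference of −0.50 ± 0.21 (log2, SE, adjusted p = 0.101) did not pass the test and was −0.18 without control culture 1.

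**Figure D2:**
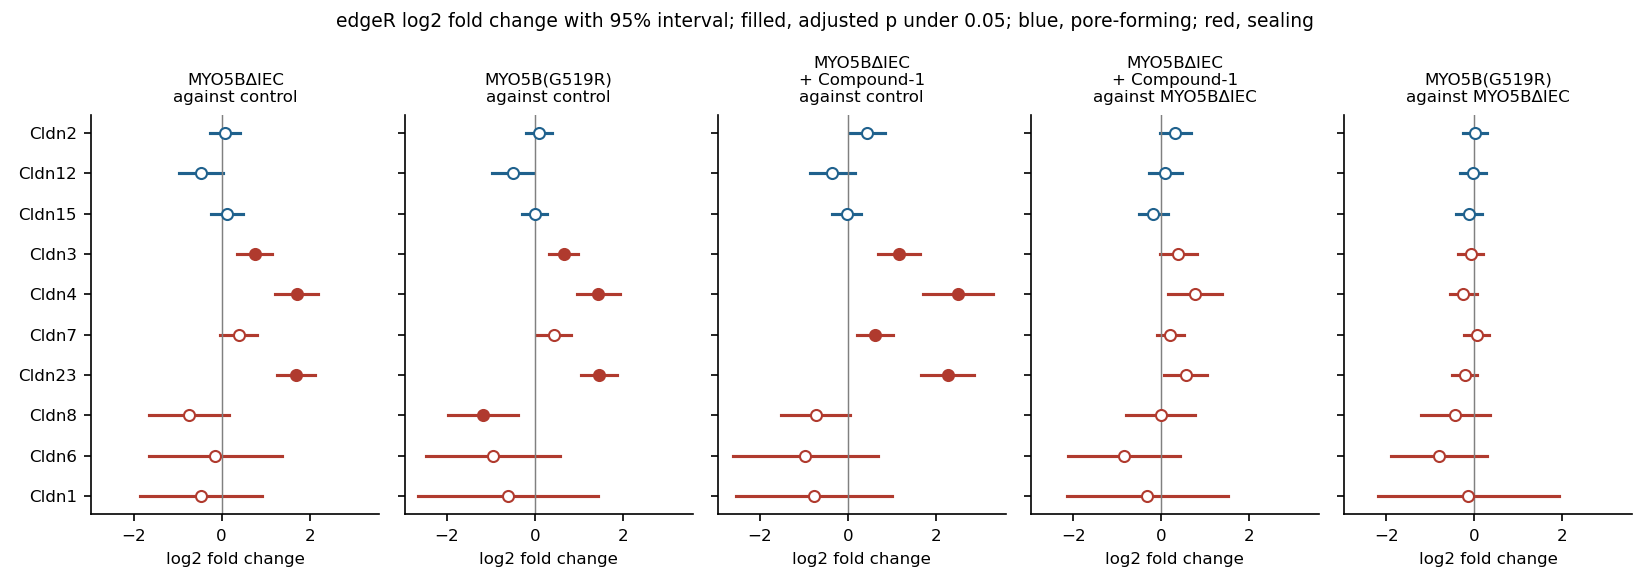
Log2 fold change of the 10 claudins in the 5 comparisons by edgeR, with 95% intervals from 4 cultures a group; filled points have an adjusted p under 0.05, blue marks the pore-forming and red the sealing genes. Cldn3, Cldn4 and Cldn23 are filled in all 3 comparisons with control, no pore-forming gene is filled in any, and no point is filled in the 2 comparisons among mutant groups.

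The 2 MYO5B models were then compared with each other. None of the 10 claudins passed the test in MYO5B(G519R) against MYO5BΔIEC, by edgeR or by DESeq2, and 0 had an unadjusted edgeR p under 0.05, against 4.3% of all 17943 genes. Across those genes edgeR called 0.00557%, which is 1 gene, and DESeq2 called 4. The log2 difference was −0.25 for Cldn4 (95% interval −0.55 to 0.05), −0.22 for Cldn23 (−0.51 to 0.07) and −0.09 for Cldn3 (−0.38 to 0.20). The interval for Cldn2 was −0.25 to 0.28 and that for Cldn15 −0.41 to 0.18.

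Compound-1 was compared with vehicle in MYO5BΔIEC enteroids, to ask what the LPAR5 agonist changed in cells without MYO5B. None of the 10 claudins passed the test, by edgeR or by DESeq2. Cldn4 and Cldn23 were the 2 claudins with an unadjusted edgeR p under 0.05. Of 18037 genes, edgeR called 0.0%, 7.51% had an unadjusted p under 0.05, and DESeq2 called 80.

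Under Compound-1 the cultures spread apart. Cldn4 read 378, 358, 964 and 621 CPM in cultures 1 to 4, and cultures 1 and 2 lay within or close to the vehicle range while cultures 3 and 4 were above all vehicle cultures. The log2 difference was 0.77 ± 0.28 (SE; 95% interval 0.15 to 1.39, edgeR adjusted p = 0.579), and it was 0.42 when Compound-1 culture 3 was left out. Cldn23 had the same shape, at 45.7, 36.9, 80.5 and 65.0 CPM, with a log2 difference of 0.56 ± 0.22 (0.07 to 1.04, adjusted p = 0.612) that was 0.35 without culture 3.

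Cldn3 read 431, 550.5, 783 and 657 CPM with Compound-1, a log2 difference of 0.39 ± 0.19 (SE, edgeR adjusted p = 0.697) that was 0.25 without culture 3. Cldn2, the pore-forming gene with the largest difference here, read 436, 489, 667 and 581 CPM, a log2 difference of 0.32 ± 0.16 (adjusted p = 0.707). Culture 3 was highest and culture 4 second for each of these 4 genes. Cldn7 at 599.6 to 693 CPM, Cldn15 at 249.95 to 297 CPM and Cldn12 at 56.6 to 82.9 CPM overlapped the vehicle cultures.

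Compound-1 culture 3 also stood apart in markers of other cell states. A list of 7 regenerative and fetal genes summed to 3150 CPM in it, against 1010, 1010 and 1410 CPM in Compound-1 cultures 1, 2 and 4 and 660 to 790 CPM in vehicle cultures. A list of 5 goblet cell genes summed to 5810 CPM in culture 3 and 4070 CPM in culture 4, against 2110 to 2370 CPM in the other 2. Their part in the claudin levels was not tested.

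Against control, 4 claudins were called higher in Compound-1-treated MYO5BΔIEC enteroids, where edgeR called 15.7% of 17937 genes higher and 29.4% in either direction. The control cultures are those of the comparisons above. By log2 fold change Cldn4 differed by 2.5 ± 0.35 (SE; 5.66-fold, edgeR adjusted p = 0.00398), Cldn23 by 2.27 ± 0.27 (4.81-fold, adjusted p = 0.00398) and Cldn3 by 1.17 ± 0.22 (2.24-fold, adjusted p = 0.00579). Cldn7 was the fourth, with every Compound-1 culture above every control culture, as for 14.3% of genes, and a log2 fold change of 0.61 ± 0.19 (adjusted p = 0.0332).

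The Cldn7 call was lost without control culture 2 (adjusted p = 0.101), 3 (0.101) or 4 (0.0956) and without Compound-1 culture 2 (0.0561), 3 (0.0732) or 4 (0.0798). Cldn2 had a log2 difference of 0.44 ± 0.18 (SE, edgeR adjusted p = 0.0933) and passed by DESeq2 (adjusted p = 0.0497) and with all 4 groups in 1 fit (0.0297). Cldn15, at −0.03 ± 0.15, and Cldn12, at −0.36 ± 0.23, did not pass, nor did Cldn8, Cldn6 and Cldn1.

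The balance between the classes was described by the summed FPKM of the 3 pore-forming genes divided by that of the 7 sealing genes in each culture. In control cultures 1 to 4 it was 0.357, 0.667, 0.631 and 0.629. In MYO5BΔIEC it was 0.316, 0.334, 0.377 and 0.323, and in MYO5B(G519R) 0.354, 0.353, 0.3498 and 0.308. With Compound-1 it was 0.322, 0.287, 0.214 and 0.266.

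Control culture 1 lay within the range of the MYO5BΔIEC cultures, and the other 3 controls lay above all 12 mutant cultures. The mean of the control ratio was 0.571 ± 0.144 (SD, n = 4) and 0.642 without culture 1, against 0.337 ± 0.0275 in MYO5BΔIEC, 0.341 ± 0.0222 in MYO5B(G519R) and 0.272 ± 0.0452 with Compound-1. The summed FPKM of the pore-forming genes was 239 to 281 for control cultures, 271 to 299.8 for MYO5BΔIEC, 263 to 278 for MYO5B(G519R) and 276 to 333 for Compound-1. The sealing genes summed to 411 to 669, 754 to 949.8, 782 to 853 and 858 to 1559.9 FPKM in the same order, with no overlap between control and any mutant group. No test is given for these sums, because their members were chosen with results of these cultures known.

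**Figure D3:**
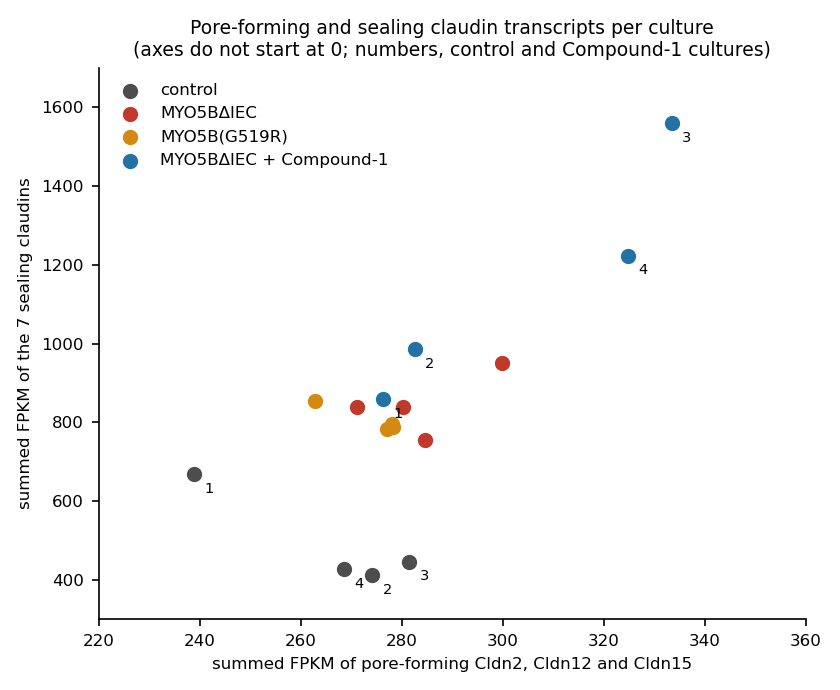
Summed FPKM of the 3 pore-forming genes (x axis) and the 7 sealing genes (y axis) in each of the 16 cultures, with axes that do not start at 0 and culture numbers beside control and Compound-1 points. Control cultures 2 to 4 sit at 411 to 446 FPKM of sealing genes and control culture 1 at 669, below all mutant cultures, while the pore-forming sums of control, MYO5BΔIEC and MYO5B(G519R) overlap.

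As shares of the summed FPKM of the 10 claudins, Cldn4 made up 7.17% ± 1.47 of the control total (SD, n = 4), 16.2% ± 2.90 of that of MYO5BΔIEC, 14.2% ± 2.01 of that of MYO5B(G519R) and 20.7% ± 5.64 with Compound-1. The control range of 5.99 to 9.32% did not meet the lowest share in the mutant groups, 13.0%. Cldn15 went the other way in share, from 17.4% ± 3.76 in control to 12.5% ± 1.35, 12.2% ± 1.28 and 9.08% ± 2.25, while its own level in CPM overlapped control in all 3 groups. Cldn3 held 27.5% ± 1.83 in control and 31.1 to 32.3% on average in the mutant groups. The share of Cldn7 was 28.3% ± 3.36 for control cultures, 25.2% ± 1.54 for those of MYO5BΔIEC, 27.6% ± 1.99 for those of MYO5B(G519R) and 23.5% ± 3.96 with Compound-1, and the control range overlapped that of each group.

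**Figure D4:**
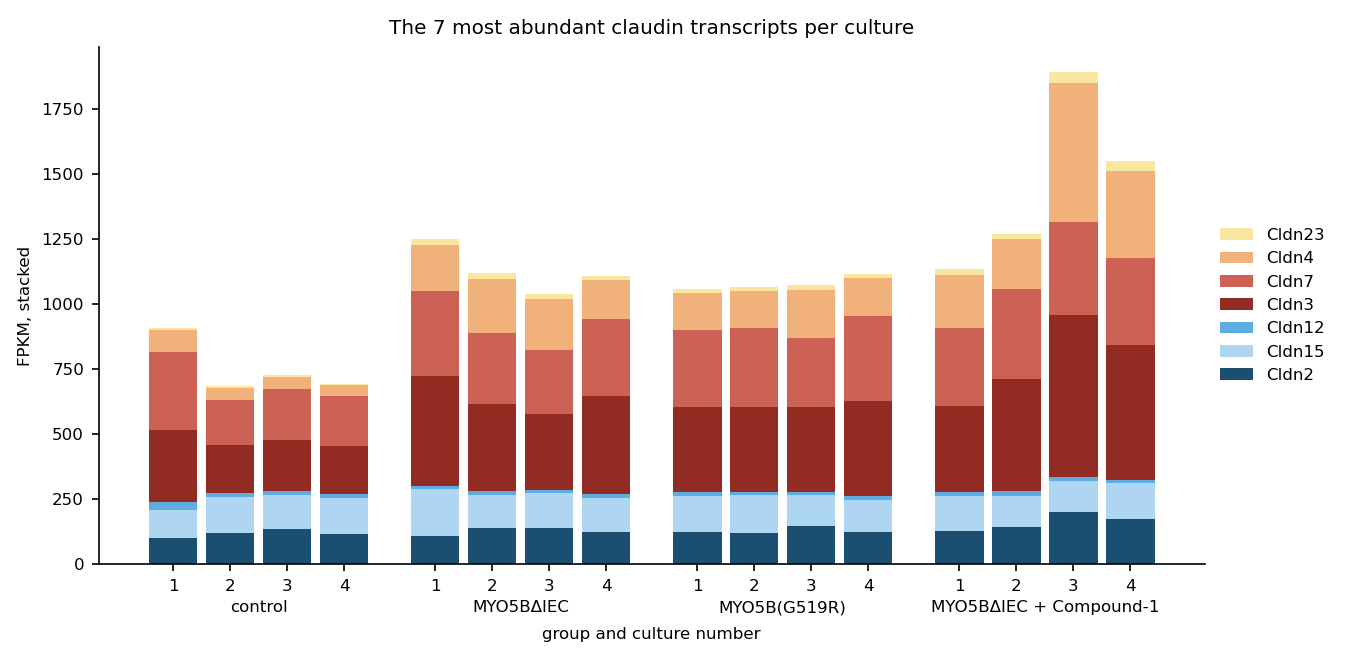
Stacked FPKM of the 7 most abundant claudins in each culture, pore-forming genes in blue at the base and sealing genes in red to yellow above, with the culture number and group under each bar. The summed height over the 10 claudins is 685 to 908 FPKM in control and 1039 to 1893 FPKM in the mutant cultures, while the blue base stays between 239 and 333 FPKM.

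Of the 25 claudins in the table that are outside the set of 10, only 3 passed the low-count filter in the comparisons with control. Cldn18, a claudin of stomach and lung, was called higher in both models. Control cultures had 1.003, 0.432, 0.384 and 0.852 CPM, those of MYO5BΔIEC 1.35, 2.997, 3.68 and 1.83 CPM, and those of MYO5B(G519R) 2.15, 3.11, 3.89 and 0.995 CPM. The groups were separate for MYO5BΔIEC (log2 fold change 1.88 ± 0.44, edgeR adjusted p = 0.0104) and overlapped for MYO5B(G519R) (1.92 ± 0.47, adjusted p = 0.0156). Cldn9 and Cldn20 stayed at or below 0.533 CPM in all cultures and were not called. Cldn5, the claudin of endothelium, reached at most 2 counts in any library.

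The other proteins of the tight junction were followed as a list of 29 genes, with 30 identifiers because Igsf5 has 2, of which 26 were tested. In MYO5BΔIEC 13 of the 26 were called higher and 0 lower, and in MYO5B(G519R) likewise 13 higher and 0 lower, where 13.5% and 13.1% of all genes were called higher. The median log2 fold change was 0.58 and 0.56, against −0.01 and −0.05 over all genes. The counts moved with single libraries, as did the share of all genes called in either direction. Without control culture 1 they were 18 and 19, all higher, where 42% and 46.2% of all genes were called. They fell to 10 in MYO5BΔIEC without control culture 2, 3 or 4, where 16.7 to 19% of all genes were called. In MYO5B(G519R) they fell to 9 without any 1 of those or MYO5B(G519R) culture 3, where 16.3 to 18.4% were called. Under Compound-1 against vehicle, edgeR and DESeq2 called 0 of the 26. Of these, 3 had an unadjusted edgeR p under 0.05, as did 7.51% of all genes tested.

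Scaffolds of the junction plaque were among those that rose. Tjp1, which encodes ZO-1, a scaffold that binds claudin tails, read 140.5, 96.7, 89.9 and 84.4 CPM in control and 215, 214, 257 and 179.8 CPM in MYO5BΔIEC (log2 fold change 1.08 ± 0.19 as SE, edgeR adjusted p = 0.00315). Cgn, which encodes cingulin, a binding partner of ZO-1, read 78.2, 109.6, 103 and 97.2 CPM in control and 227, 214, 195 and 158 CPM in MYO5BΔIEC (1.04 ± 0.16, adjusted p = 0.00231). Both groups were separate for each gene, and in MYO5B(G519R) the log2 fold changes were 0.83 ± 0.20 and 0.96 ± 0.14 (adjusted p = 0.0145 and 0.00263).

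Amotl1, a junctional relative of angiomotin, had the largest change of the list, 2.04 ± 0.27 on the log2 scale in MYO5BΔIEC and 2.13 ± 0.25 in MYO5B(G519R) (edgeR adjusted p = 0.00155 and 0.00185). Cgnl1, paracingulin, rose by 1.04 ± 0.21 and 1.22 ± 0.23 (adjusted p = 0.00542 and 0.00515). Pard6b, a polarity protein, and Ildr1, which marks tricellular junctions, rose in MYO5BΔIEC by 1.33 ± 0.26 and 1.16 ± 0.26 (adjusted p = 0.00496 and 0.00968). Both were also called higher in MYO5B(G519R). There both calls were lost without control culture 2, 3 or 4 or MYO5B(G519R) culture 2 or 3. In these settings the edgeR adjusted p was 0.0518 to 0.0764 for Pard6b and 0.0881 to 0.141 for Ildr1. Ocln, occludin, is added here after its values were seen: it had 155 to 166 CPM in control cultures and 140.2 to 178 CPM in MYO5BΔIEC, a log2 difference of 0.02 ± 0.12 (adjusted p = 0.934).

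Of 18 transcription factors known to act on claudin genes, 17 were tested. In MYO5BΔIEC 5 were called higher and 0 lower, and in MYO5B(G519R) 9 higher and 1 lower, medians 0.34 and 0.38 on the log2 scale against −0.01 and −0.05 over all genes. The 5 are 29.4% of the list and so near the 27.4% of all genes called in MYO5BΔIEC, while the 10 in MYO5B(G519R) are 58.8%, against 26.8% of all genes. These counts moved with single libraries, as did the share of all genes called. Without control culture 1 they were 10 higher and 1 lower, and 12 higher and 1 lower, where 42% and 46.2% of all genes were called. Over all single cultures left out, the number called ranged from 3 to 11 in MYO5BΔIEC and from 5 to 13 in MYO5B(G519R). The share of all genes called ranged from 16.7 to 42% and from 16.3 to 46.2%.

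Grhl3, a grainyhead factor of barrier epithelia, was scarce and rose most, from 1.57, 1.33, 1.03 and 1.63 CPM in the control cultures. It read 4.61, 10.4, 10.97 and 11.5 CPM in MYO5BΔIEC and 2.90, 3.05, 9.65 and 10.7 CPM in MYO5B(G519R). Neither group overlapped control, and the log2 fold changes were 2.76 ± 0.32 and 2.24 ± 0.46 (edgeR adjusted p = 0.0014 and 0.0075). Klf4, a factor of differentiated surface cells, rose by 1.06 ± 0.20 and 0.84 ± 0.21 (adjusted p = 0.00477 and 0.0157). Stat3 rose by 1.05 ± 0.18 and 0.90 ± 0.16 (adjusted p = 0.00294 and 0.00465).

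Hnf4g, a nuclear receptor of enterocytes, was the 1 regulator called lower, in MYO5B(G519R), at 86.8, 91.8, 128 and 84.6 CPM against 109, 273, 221 and 213 CPM in control. Control culture 1 lay within the mutant range and the other 3 controls above it. The log2 fold change was −1.06 ± 0.26 in MYO5B(G519R) (edgeR adjusted p = 0.0143) and −0.49 ± 0.27 in MYO5BΔIEC (adjusted p = 0.204).

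The last list held 12 genes whose proteins bind, modify or act beside claudins, and all 12 were tested. In MYO5BΔIEC 5 were called higher and 0 lower, and in MYO5B(G519R) 5 higher and 1 lower, with medians of −0.13 and −0.10 on the log2 scale. Of all genes, 27.4% and 26.8% were called in either direction. Without MYO5B(G519R) culture 2 or 3 the count in that group was 2 in place of 6, and it was 3 without culture 1 or 4 or without control culture 2, 3 or 4. In those settings 16.3 to 25% of all genes were called. The MYO5BΔIEC counts moved as well. With a gene length offset 3 were called higher and 1 lower, where 27% of all genes were called. Without control culture 1 the counts were 5 higher and 1 lower, where 42% of all genes were called. St14, matriptase, a protease that cleaves EpCAM and so frees claudin-7, read 148, 132, 146 and 129 CPM in control and 319, 290.3, 256 and 285 CPM in MYO5BΔIEC. The groups were separate (log2 fold change 1.06 ± 0.13, edgeR adjusted p = 0.00142), and in MYO5B(G519R) the change was 0.99 ± 0.11 (adjusted p = 0.00181). Epcam itself, added after its values were seen, had log2 differences of −0.24 ± 0.15 and −0.13 ± 0.15 and did not pass.

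Wnk4, a kinase that phosphorylates claudins, rose by 0.63 ± 0.15 and 0.73 ± 0.13 on the log2 scale in the 2 models (edgeR adjusted p = 0.0134 and 0.00458). The gene called lower in MYO5B(G519R) was Cftr, the apical chloride channel (−0.85 ± 0.28, adjusted p = 0.0451). That call was lost without control culture 3 (adjusted p = 0.0537) or without any 1 of the MYO5B(G519R) cultures (0.0931 to 0.0996), and also with the size factors of DESeq2 (0.0539) and by limma (0.0942 and 0.0884).

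**Figure D5:**
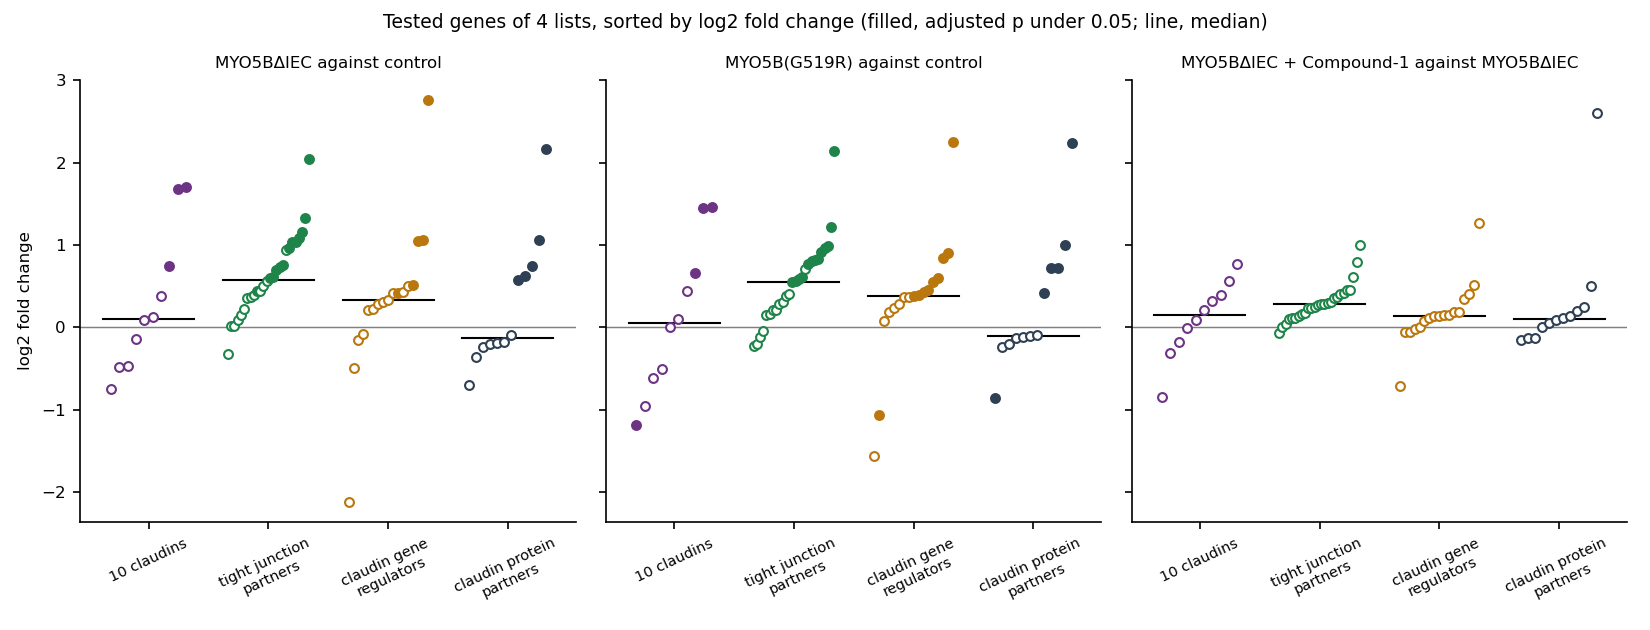
Log2 fold change (y axis) of every tested gene in the set of 10 claudins, the tight junction partners, the claudin gene regulators and the claudin protein partners, each sorted from low to high, for 3 comparisons; filled points have an edgeR adjusted p under 0.05 and black lines are medians. Filled tight junction partners all lie above 0 in both models, 13 in each, and no point is filled for Compound-1 against vehicle.

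Marker sums of several cell types covered different ranges in the groups beside the sealing claudins. For the crypt stem, proliferation and goblet lists the MYO5B(G519R) range overlapped that of control. Epithelial markers (6 genes) summed to 5790 to 7080 CPM in control cultures, against 8700 to 9400 CPM for MYO5BΔIEC and 7650 to 9670 CPM for MYO5B(G519R), with 4 and 3 of the 6 called higher, where 13.5% and 13.1% of all genes were. The regenerative and fetal genes (7 genes) summed to 330 to 474, 660 to 790 and 502 to 981 CPM in the same order, with 5 and 4 called higher. Crypt stem markers (5 genes) had lower sums, from 2250 to 6290 CPM in control to 821 to 1970 and 1160 to 2500 CPM, with 1 called lower in each. Proliferation markers (6 genes) summed to 1710 to 1990, 1140 to 1480 and 1370 to 1720 CPM, with 3 and 2 called lower. Of all genes tested, 2483 of 17951 were called lower in MYO5BΔIEC and 2437 of 17829 in MYO5B(G519R). The 5 goblet markers summed to 1540 to 1970, 2000 to 2390 and 1960 to 2430 CPM, with 2 called higher and 1 lower in MYO5BΔIEC and 2 higher and 2 lower in MYO5B(G519R).

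Enterocyte markers (12 genes) summed to 4130 CPM in control culture 1 and 14200 to 17900 CPM in the other controls. The MYO5BΔIEC cultures had 7650 to 14800 CPM of them and the MYO5B(G519R) cultures 6600 to 10400 CPM. Of the 12 genes, 2 were called higher and 0 lower in MYO5BΔIEC, and 1 higher and 1 lower in MYO5B(G519R). Of all genes tested, 27.4% and 26.8% were called in either direction. Tuft cell markers (4 genes) summed to 64.9 CPM in control culture 1 and 19.5 to 25.3 CPM in the other controls. Their sums were 16.7 to 23.7 CPM in MYO5BΔIEC and 20.7 to 24.4 CPM in MYO5B(G519R). Of the fibroblast markers, Col3a1 and Dcn had 0 counts in all 16 libraries. The part of these markers in the claudin differences was not tested.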

How the data were processed

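RNA of 16 cultures was sequenced as paired ends, and groups were taken from the sample labels. By the study's methods and the submitters' processing notes, alignment used STAR 2.5 and the mouse genome GRCm38, and HTSeq 0.6.1 gave the count of reads per gene that the authors deposited, unnormalized and with 0 rows lacking a gene name. The authors derived FPKM from those counts by gene length and 1 size per library, 0.870 to 1.08 times the count total. Strand and multimapping settings were not given in the sources used here. All 16 columns of each table were used, and 0 were left out.

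The main test was the quasi-likelihood F test of edgeR 4.0.16 (R 4.3.3) on 2 groups at a time, with TMM scaling. A gene entered a comparison if 2 or more of its 8 libraries had a count of 10 or more. P values were adjusted by Benjamini and Hochberg over all genes tested, at a threshold of 0.05. CPM values are on the TMM scale. All 10 claudins passed the filter in all 5 comparisons, and also by the reference group alone. On simulated counts for MYO5BΔIEC against control (17417 genes, 93 changed 2-fold and 96 changed 4-fold), edgeR called 21.5% and 77.1% of these changes. DESeq2 called 46.2% and 88.5%, with 37 false calls against 6 by edgeR. For Compound-1 against vehicle (17495 genes) edgeR called 30.6% and 81.2%, and DESeq2 51% and 87.5%. For MYO5BΔIEC far fewer genes were changed than the 4910 called in the data, which makes the adjusted threshold stricter. These shares thus do not measure the power of the real comparison with control.

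The 10 claudins were named in every comparison, other claudins where they passed the filter, and genes of the 3 further lists where called in a model against control, up to 6 a list by size in MYO5BΔIEC. A called gene of the last list is counted but not reported here by name. Members, lists and tests were chosen with earlier results of these data known. Alternatives were DESeq2 1.42.0, its size factors, upper quartile factors, filterByExpr, no filter, all 4 groups in 1 fit, mitochondrially encoded genes left out, a gene length offset, the replicate number as a block, limma 3.58.1 on log2(FPKM + 1) and log2(FPKM + 0.1), and each culture left out. Combinations without control culture 1 or Compound-1 culture 3 were added after seeing the data. Promoter windows came from RefSeq on GRCm38.p6.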

Additional observations from a re-analysis of the deposited data

Results flagged for a closer look

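In 44 groups of 4 cultures, the highest or lowest culture was compared with the other 3 by Dixon's criterion, which chance meets in about 1 in 20 groups. It was met 8 times, and no cause was tested. In control culture 1, Cldn3 read 349 CPM against 239 to 251 in the other controls and Cldn12 read 132 CPM against 68.9 to 73.1. The pore-forming to sealing FPKM ratio of that culture was 0.357 against 0.629 to 0.667. Among MYO5B(G519R) cultures, Cldn4 stood at 336 CPM in culture 3 against 254 to 268, and Cldn3 at 466 CPM in culture 4 against 409 to 414, where the ratio was 0.308 against 0.350 to 0.354. Among MYO5BΔIEC cultures, Cldn15 stood at 383 CPM in culture 1 against 267 to 286, and Cldn12 at 80.9 CPM in culture 4 against 55.3 to 55.7.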

How the results depend on the processing

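The calls of Cldn3, Cldn4 and Cldn23 against control held under every alternative run and with every single culture left out, in all 3 comparisons with control. With a gene length offset, Cldn8 in MYO5B(G519R) missed the threshold (adjusted p = 0.0519), as it did by limma (0.066 and 0.058), and without control culture 1 that offset made Cldn12 pass there (log2 −0.29, adjusted p = 0.014). Cldn7 passed in MYO5B(G519R) with all 4 groups in 1 fit (0.0499), as Cldn2 did with Compound-1 against control (0.0297). With a gene length offset, 10 tight junction partners were called in MYO5BΔIEC in place of 13, where 27% of all genes were called in place of 27.4%. With 4 cultures a group, edgeR missed most simulated 2-fold changes, though with far fewer genes changed than were called against control in the data. Cldn1 and Cldn6 rest on a few counts. Over all genes, edgeR called 7474 in MYO5BΔIEC against control without control culture 1, compared with 4910 using all cultures and 2963 without MYO5BΔIEC culture 2. The same counts in MYO5B(G519R) were 8146 without control culture 1, 4778 with all and 2880 without control culture 3, and with Compound-1 7459, 5275 and 2957. For Compound-1 against vehicle, 12 genes were called with no count filter.

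Replicate numbers were not taken to pair the cultures, since same-numbered cultures correlated at −0.193 to 0.524 in their deviations, and not all above 0.1 in any comparison. Between the 2 models, 3 of 4 did (0.118, 0.414 and 0.524, against 0.0574), each best with its own number, and the replicate block raised the genes with an unadjusted p under 0.05 from 772 to 2532, with 1 gene called either way and 0 of the 10 claudins. With the replicate block, Cldn7 with Compound-1 against control missed the threshold (0.644 on the log2 scale, adjusted p = 0.0616), and the number of claudins called was otherwise the same. Outside the 10, Cldn18 in MYO5B(G519R) missed it as well (0.0523), as did Cftr (0.0647).

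Only log2 differences that never passed the test changed sign, and the cause was not tested. Cldn6 in MYO5BΔIEC against control became 0.216 with the replicate block, 0.103 with the length offset, 0.41 with both and 0.0943 by limma on log2(FPKM + 0.1). Cldn15 in MYO5B(G519R) against control became −0.0123 with upper quartile factors, −0.00104 without mitochondrial genes, −0.00162 with filterByExpr and −0.039 by DESeq2 without control culture 1. Cldn8 with Compound-1 against vehicle became 0.0189 with all 4 groups in 1 fit, 0.0739 with the block, 0.0801 with block and length offset, 0.0214 and 0.0836 by limma, and 0.11 with the offset without Compound-1 culture 3. Cldn15 with Compound-1 against control became 0.119 with the length offset, 0.114 with block and offset, 0.162 with the offset without Compound-1 culture 3 and 0.105 with it without control culture 1. Cldn2 between the models became −0.000717 with upper quartile factors.

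With single cultures left out, these log2 differences spanned 0. In MYO5BΔIEC against control, Cldn6 ranged from −0.495 to 0.603 and Cldn15 from −0.0112 to 0.178. In MYO5B(G519R) against control, Cldn15 ranged from −0.0471 to 0.0431. With Compound-1 against vehicle, Cldn1 ranged from −0.671 to 0.0638, Cldn8 from −0.228 to 0.301 and Cldn12 from −0.0317 to 0.241. With Compound-1 against control, Cldn15 ranged from −0.0867 to 0.011. Between the models, Cldn1 ranged from −1.13 to 0.271, Cldn2 from −0.0496 to 0.0684, Cldn3 from −0.155 to 0.0123, Cldn12 from −0.0743 to 0.128 and Cldn15 from −0.164 to 0.0204.

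Without Cldn7 and Cldn12, whose class is less certain, the mean pore-forming to sealing ratio of control cultures was 0.949, that of MYO5BΔIEC 0.483, that of MYO5B(G519R) 0.513 and that of Compound-1 0.373.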
